A study of Mus musculus with 43 samples.

Results

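A pooled CRISPR knockout screen was read at the genes of phospholipase A2 and eicosanoid metabolism. Its members were the rows of the deposited table whose gene symbol starts as those of the phospholipases A2 (Pla2g), the lipoxygenases (Alox), the leukotriene enzymes Ltc4s and Lta4h, the prostanoid synthases (Ptgs, Ptges, Ptgds, Hpgds, Ptgis, Tbxas1), the epoxide hydrolases (Ephx) and the carbonyl reductases (Cbr). This rule took 43 of 2078 genes, each with 5 sgRNAs (215 of 10390 gene-targeting sgRNAs), and used no measured value. The library also held 250 nontargeting sgRNAs. The screened cells were OT-I CD8+ T cells, whose receptor recognises an ovalbumin peptide, from Cas9 knock-in mice that express the nuclease throughout the body. They were activated, transduced with the lentiviral library at a multiplicity high enough for a cell to take up more than 1 vector, selected on the CD90.1 marker of the vector, and injected by tail vein into Cas9 knock-in mice that bore orthotopic KPC_OVA tumours. KPC_OVA is a mouse pancreatic cancer cell line made to express ovalbumin. Treatment with anti-PD-1 or a control IgG began on the day of transfer, and all groups shared the OT-I receptor, Cas9 and the library.

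CD90.1+ cells were sorted 7 days after transfer from 7 organs, namely the primary tumour, lung, liver, peritoneal metastases, spleen, and draining and non-draining lymph nodes, under each treatment. Cells of the day of transfer formed the reference (T0, 3 libraries). Groups held 3 libraries each, except liver IgG and peritoneal metastases IgG with 2 and liver anti-PD-1 with 1, so 41 libraries were compared. The labels call these samples biological replicates but do not say which came from the same mouse. One anti-PD-1 library titled as peritoneal metastases carries a tissue label of spleen, and is used here as peritoneal metastases. Without it the mean changes over 10 groups moved by at most 0.06, with 1 change of sign among the 43 genes, the changes in peritoneal metastases anti-PD-1 by at most 0.60, with 10 changes of sign, and no member passed the pooled test in either. Calls that it changed are named beside the results. Genomic DNA carries no marker of the cell type. The measured value is how often an sgRNA was found among the sorted cells, so that fewer divisions, more death and less entry into an organ cannot be told apart.

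Phospholipases A2 release fatty acids, among them arachidonic acid, from the second position of membrane phospholipids. Cyclooxygenases turn free arachidonic acid into prostaglandin H2, from which terminal synthases make prostaglandins, prostacyclin and thromboxane, whereas lipoxygenases lead to leukotrienes and hydroxy fatty acids. Several of these lipids act on T cells from outside, and prostaglandin E2 is known to restrain their activation.

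The deposited table names the screened sgRNAs by number, without their sequences, and their sequences are not analysed here. For 3 members, the study also designed guides for a separate follow-up library. The paper took the genes of that library from those called enriched in this screen by both MAGeCK and STARS, in any organ and treatment. Those methods differ from the tests used below. The guides are shown because they place in the genome the loci that were taken further. In GRCm38.p6 they lie in *Pla2g4a* (chromosome 1, 149829618 to 149961290, minus strand), *Pla2g4b* (chromosome 2, 120033417 to 120043030, plus strand) and *Alox8* (chromosome 11, 69183932 to 69197843, minus strand). Lower case marks the 20-base protospacer and capitals the PAM read from the genome, 5′ to 3′ along the guide's strand.
Pla2g4a guide 1: ataatgatataaaccccgtgTGG
Pla2g4a guide 2: ctgacacatcaggtttgacgTGG
Pla2g4a guide 3: acagtgccatgctgaaccgtAGG
Pla2g4b guide 1: ctccgagccaaagagctcggAGG
Pla2g4b guide 2: gtaccgccaaagttggctagGGG
Pla2g4b guide 3: gggcacaatagataggcagaGGG
Alox8 guide 1: cttccagccactgataacagGGG
Alox8 guide 2: ctggtgtaacagggtcatcgGGG
Alox8 guide 3: gtctcgtggtcaaggcagcgAGG

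Each of these guides had 1 match followed by NGG on the chromosomes of the assembly, and each cut lay in a coding exon of the principal transcript. The *Pla2g4b* guides cut within exons 13, 14 and 15 of 20 (guide 2 at chr2:120038970-120038992, guide 3 at chr2:120039270-120039292, guide 1 at chr2:120039686-120039708, all on the minus strand). The *Pla2g4a* guides cut in exons 4, 7 and 10 of 18 (guide 1 at chr1:149902345-149902367 on the minus strand, guide 3 at chr1:149886254-149886276 and guide 2 at chr1:149871416-149871438 on the plus strand). Those for *Alox8* cut in exons 2, 4 and 7 of 14 (guide 1 at chr11:69197386-69197408, guide 3 at chr11:69191599-69191621, guide 2 at chr11:69188013-69188035, all on the plus strand). Whether they are among the 5 screened sgRNAs of each gene was not tested, and no value below belongs to them.

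The values are sgRNA signals that the authors normalised to the nontargeting sgRNAs and corrected for batches, so that the read depth behind them is unknown. Library sums ran from 1788300 to 4228882. At T0 the members' sgRNAs had a median signal of 288, against 295 for all gene-targeting sgRNAs, and none of the 215 was undetected. An sgRNA was called undetected where it was 0 or at its lowest value within 1 replicate number, shared by at least 2 libraries. Undetected members were few in the tumour (0.465% in each of 6 libraries), more in lung (4.19 to 33.5%) and most in the lymph nodes (39.5 to 92.1%). Over all gene-targeting sgRNAs this share was 2.83 to 4.30% (tumour), 10.8 to 42.7% (lung) and 48.6 to 91.5% (lymph nodes).

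**Figure D1:**
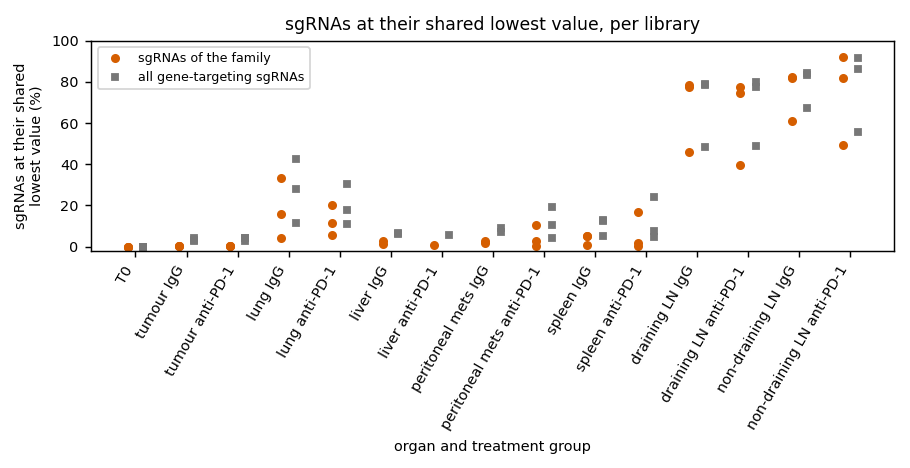
Share of sgRNAs at their shared lowest value (y axis, percent) in each library, by organ and treatment (x axis). Circles are the 215 sgRNAs of the phospholipase and eicosanoid genes and squares all 10390 gene-targeting sgRNAs, and both climb from 0 to 0.00962% at T0 to over 39.5% in every lymph node library.

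In each library a gene was given the average log2(value + 1) of its 5 sgRNAs, set against the mean of the nontargeting sgRNAs, and a change is the difference from T0 on this log2 scale. Tests were moderated tests in limma with Benjamini-Hochberg adjustment over 2078 genes and a threshold of 0.05, fitted with 1 pooled spread outside the lymph nodes and separately within them. The spread was not equal: when each group was given its own, its size relative to the geometric average was 0.313 at T0, 0.633 and 0.718 in the tumour groups and 1.78 and 1.85 in the lung groups (liver groups shared 1 value). A pooled spread is wider than that of T0 and tumour and narrower than that of lung, and calls are also given with 1 spread per group, an alternative chosen after the data were seen. The T0 libraries lay close together, so organ libraries can fall outside their range where the mean change is small. For *Alox12b*, with a mean of -0.13 outside the lymph nodes, 12 of 26 libraries lay above all T0 libraries and 14 below. The share over all genes is not given here.

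The mean changes of this gene family were small. Averaged over the 10 organ groups outside the lymph nodes, the changes of the 43 genes had a median of 0.04 and an interquartile range of 0.34, against a median of -0.14 and an interquartile range of 0.68 over all 2078 genes. None of the 43 genes passed the test, and none had an unadjusted p under 0.05. Of all genes tested, 16.3% were called in that comparison and 18.8% had an unadjusted p under 0.05. The 95% intervals of all 43 genes included 0, and their bounds lay between -1.89 and 1.75 (-1.25 and 1.18 with 1 spread per group). For scale, ribosomal protein genes, which every dividing cell needs, had a median change of -5.35, with all 20 below 0 and 19 of 20 past the threshold. With 1 spread per group, 5 of the 43 genes passed: *Ptges3*, *Pla2g4b*, *Pla2g4e* and *Pla2g4f* were higher than T0 and *Pla2g4c* lower, where 5.1% of all genes were called higher and 26.9% lower. With a block for replicate number and treatment added, *Ptges3*, *Pla2g4b* and *Pla2g4c* passed and the other two did not (adjusted p = 0.0673 for *Pla2g4e* and 0.0668 for *Pla2g4f*).

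**Figure D2:**
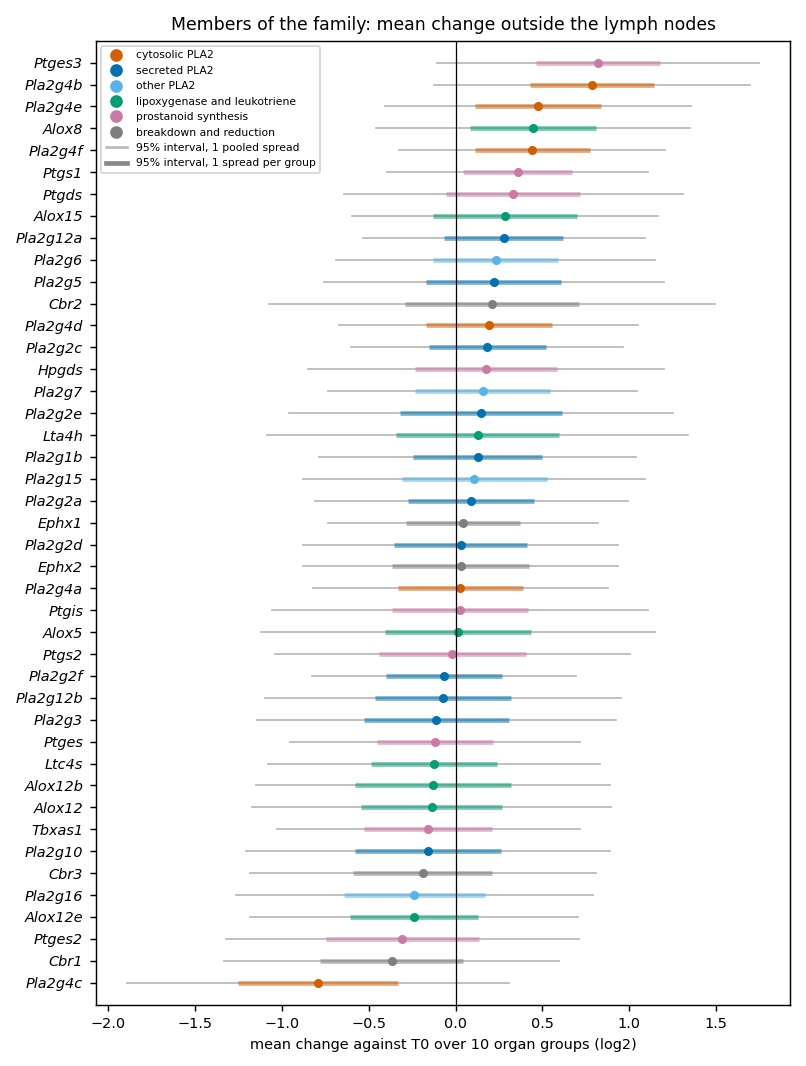
Mean change against T0 over the 10 organ groups outside the lymph nodes (x axis, log2) for the 43 genes (y axis), coloured by role. Points are means, thin bars 95% intervals with 1 pooled spread and thick bars those with 1 spread per group. *Ptges3* at 0.82 and *Pla2g4b* at 0.79 lie at the top, *Pla2g4c* at -0.79 at the bottom, and every thin bar crosses 0.

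The zero of this scale is set by the centring. With the nontargeting median in place of their mean the median of all genes shifted by -0.41, and with the values as deposited by -0.998, each moving every gene alike. The order of the genes and their distance from the median of all genes do not depend on it. *Ptges3*, at 0.96 above that median, ranked 16th highest of 2078 genes and *Pla2g4b*, at 0.92 above, ranked 18th. *Pla2g4c* lay 0.65 below the median, where 420 genes were lower still. *Ptges3* and *Pla2g4b* stayed above 0 in all alternatives except the values as deposited, where they stood at -0.18 and -0.21 with the median of all genes at -1.14.

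Cytosolic phospholipases A2 (*Pla2g4a* to *Pla2g4f*) held the widest range of any role, from -0.79 to 0.79, with 5 of 6 above 0. *Pla2g4b* is a calcium-dependent member of this group. Its mean change was 0.79 (SE 0.45, 95% interval -0.13 to 1.70, adjusted p = 0.434; adjusted p = 4.39e-04 with 1 spread per group), which is 1.72-fold. Over the 26 organ libraries it ran from -0.39 through a median of 0.75 to 3.03, and 21 lay above all 3 T0 libraries, which spanned -0.17 to 0.12. It was high in every lung anti-PD-1, liver and spleen library and near T0 in tumour IgG, where the 3 libraries gave 0.05, -0.31 and 0.22. Its 5 sgRNAs averaged -0.04, 0.40, 0.78, 1.22 and 1.57, so 4 of 5 pointed up.

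*Pla2g4c*, the member that lacks the calcium-binding C2 domain, was the lowest of the 43 at -0.79 (SE 0.54, interval -1.89 to 0.31, adjusted p = 0.665; adjusted p = 0.00607 with 1 spread per group). It was below 0 in all 10 group means, although in peritoneal metastases IgG the mean was -4.16e-04. Without the library with the conflicting tissue label, its mean in peritoneal metastases anti-PD-1 was above 0 (0.01). Over libraries it ran from -2.70 through -0.62 to 0.82, with 19 of 26 below all T0 libraries and 5 above them. The lowest values were in lung (-2.65 and -2.70 in 1 library each of IgG and anti-PD-1) and liver (-2.03, -0.86 and -1.90). Its sgRNAs averaged -1.66, -1.47, -0.80, -0.38 and 0.34.

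*Pla2g4a*, the arachidonate-selective enzyme that starts most eicosanoid synthesis in leukocytes, averaged 0.03 (interval -0.82 to 0.88), and its sgRNAs stayed between -0.46 and 0.47. *Pla2g4e* averaged 0.48 and *Pla2g4f* 0.44. In each, 1 sgRNA stood well above the rest (1.49 and 1.48), while the other 4 lay between -0.29 and 0.59 for *Pla2g4e* and between 0.04 and 0.37 for *Pla2g4f*. With the median in place of the mean of the sgRNAs, they stood at 0.98 and 0.69, where the median of all genes was 0.10. Neither passed in limma at that setting (adjusted p = 0.388 and 0.476). *Pla2g4e* no longer passed with 1 spread per group when the library with the conflicting tissue label was left out (adjusted p = 0.0507), while *Ptges3*, *Pla2g4b*, *Pla2g4c* and *Pla2g4f* did (3.99e-04, 6.57e-04, 0.00965 and 0.0296). *Pla2g4b*, *Pla2g4e*, *Pla2g4d* and *Pla2g4f* are direct neighbours on chromosome 2, and all 4 were above 0 (0.19 to 0.79) with the centring used here. With the nontargeting median as the centre, *Pla2g4e* and *Pla2g4f* stood at 0.07 and 0.03. With the values as deposited they stood at -0.52 and -0.56.

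Secreted phospholipases A2, which act on lipids outside the cell, were the flattest role. The 11 genes lay between -0.16 for *Pla2g10* and 0.28 for *Pla2g12a*, 7 of them above 0, and none passed with either error model (lowest adjusted p = 0.230 with 1 spread per group). The 6 neighbours of the chromosome 4 cluster (*Pla2g2a*, *Pla2g2c*, *Pla2g2d*, *Pla2g2e*, *Pla2g2f* and *Pla2g5*) stayed between -0.07 and 0.22. Among the remaining phospholipases, the calcium-independent *Pla2g6* averaged 0.23 (interval -0.69 to 1.15), lysosomal *Pla2g15* 0.11, *Pla2g7*, which breaks down platelet-activating factor, 0.16, and *Pla2g16* (now Plaat3) -0.24 (-1.27 to 0.79).

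Lipoxygenase and leukotriene genes (8) had a median of -0.06, and none passed. *Alox8*, the mouse 8-lipoxygenase, was the highest at 0.45 (SE 0.45, interval -0.46 to 1.35, adjusted p = 0.953; adjusted p = 0.0553 with 1 spread per group). Its libraries ran from -1.23 through 0.38 to 1.87, with 16 of 26 above T0 and 7 below, and all 3 of peritoneal metastases anti-PD-1 were high (1.13, 1.16 and, in the library with the conflicting tissue label, 1.07). *Alox5*, which makes leukotriene A4, averaged 0.01 (-1.12 to 1.15). *Ltc4s* and *Lta4h*, which turn leukotriene A4 into leukotrienes C4 and B4, averaged -0.12 (-1.08 to 0.83) and 0.13 (-1.08 to 1.34). *Alox12e*, at -0.24, was the product of 1 sgRNA at -3.65 and 4 between 0.16 and 1.11. That sgRNA also had the highest T0 signal among the 215 (1878).

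Prostanoid synthesis genes (9) had a median of 0.03. *Ptges3* encodes p23, a co-chaperone of Hsp90 that also has prostaglandin E synthase activity. It was the highest of the 43 at 0.82 (SE 0.46, interval -0.11 to 1.75, adjusted p = 0.400; adjusted p = 2.64e-04 with 1 spread per group), or 1.76-fold. With the centring used here it was also the only member above 0 in all 10 group means (0.41 to 1.31). The sign in a single group depends on that centring, which moves every gene of a library alike. In lung IgG, for example, the nontargeting median took *Ptgs2* from 1.90 to 0.71. Of 26 libraries of *Ptges3* 23 lay above all T0 libraries and 2 below, although the T0 range is narrow (-0.05 to 0.10). The tumour IgG libraries gave 0.77, 0.58 and 0.72, the tumour anti-PD-1 libraries 0.62, 0.73 and 0.23, and the exceptions were 1 library each of lung anti-PD-1 (-1.17), spleen IgG (-0.04) and spleen anti-PD-1 (-0.37). The sgRNAs averaged 0.00, 0.43, 0.91, 1.20 and 1.55. With the median in place of the mean of the sgRNAs, *Ptges3* reached 1.18 (adjusted p = 0.0208). That setting also moved the median of all genes up by 0.24, to 0.10.

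Both other prostaglandin E synthases had intervals that included 0. *Ptges*, the inducible microsomal enzyme, averaged -0.12 (-0.96 to 0.72) and *Ptges2* -0.31 (-1.32 to 0.71). The cyclooxygenases *Ptgs1* (constitutive) and *Ptgs2* (inducible) averaged 0.36 (-0.39 to 1.11) and -0.02 (-1.04 to 1.003). For *Ptgs2* the mean hid 1 sgRNA at -2.57 beside 4 between 0.38 and 0.84, and its libraries ran from -2.29 to 3.15. The prostaglandin D synthases *Ptgds* and *Hpgds* averaged 0.33 (-0.65 to 1.31) and 0.18 (-0.85 to 1.20). *Ptgis*, the prostacyclin synthase, averaged 0.03 (-1.06 to 1.11) and *Tbxas1*, the thromboxane synthase, -0.16 (-1.03 to 0.72). The 5 genes of breakdown and reduction lay between -0.37 and 0.21. Of these *Cbr1*, which reduces prostaglandin E2 among many carbonyls, was the lowest (interval -1.33 to 0.60), and *Ephx2*, the soluble epoxide hydrolase, stood at 0.03 (-0.88 to 0.94).

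**Figure D3:**
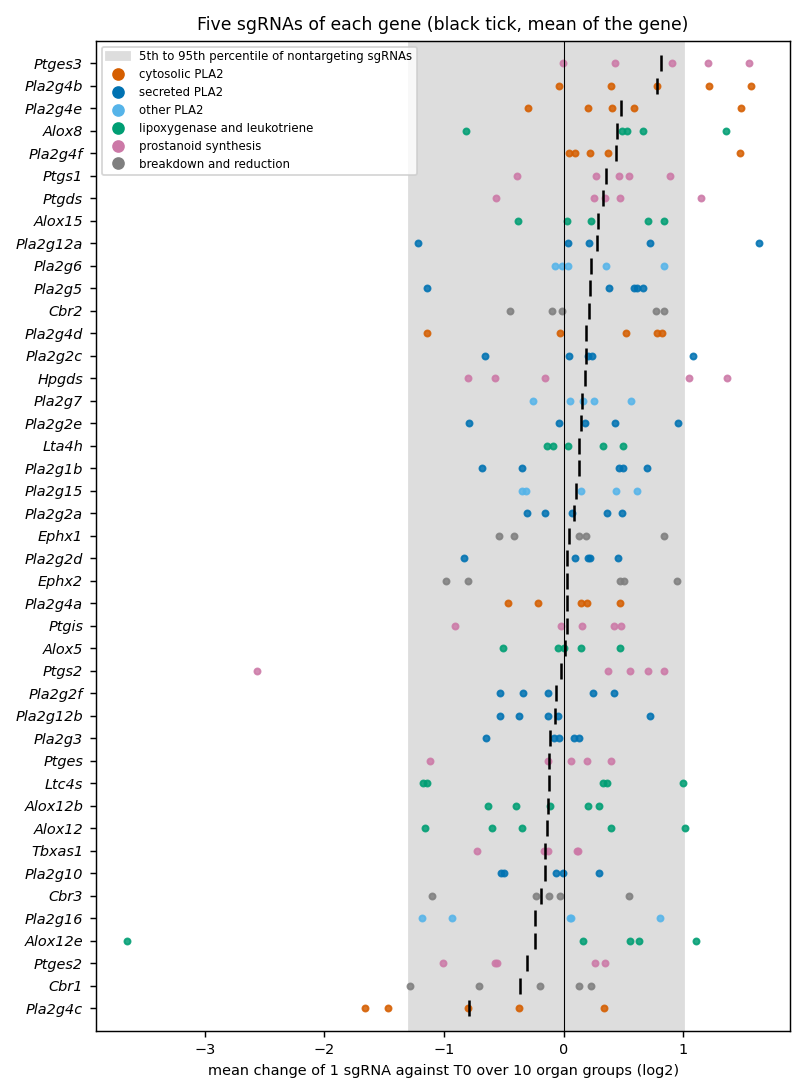
Mean change of each of the 5 sgRNAs per gene (x axis, log2, averaged over the 10 organ groups) for the 43 genes (y axis), coloured by role, with the gene mean as a black tick. The grey band is the 5th to 95th percentile of the 250 nontargeting sgRNAs (-1.29 to 1.004), and the sgRNAs of *Alox12e* at -3.65 and *Ptgs2* at -2.57 stand far to its left.

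At the level of single sgRNAs the family spread about as widely as the controls. The SD of the mean change was 0.70 over the 215 sgRNAs, 0.69 over the nontargeting sgRNAs and 1.67 over all gene-targeting sgRNAs. An sgRNA fell below -1 in 6.98% of the family, 10% of the nontargeting and 24.0% of all gene-targeting sgRNAs. The share above 1 was 6.51%, 5.2% and 3.88%, in the same order.

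By organ, 393 of the 430 group changes of the family stayed within 1 log2 unit of T0. In the tumour none of the 43 genes exceeded 1 in either direction under IgG or anti-PD-1, where 18.4% and 19.0% of all genes did. The extremes in tumour were *Ptges3* at 0.69 and *Alox12e* at -0.57 under IgG, and *Pla2g5* at 0.58 and *Ltc4s* at -0.62 under anti-PD-1. In lung 15 gene values exceeded 1 (9 under IgG and 6 under anti-PD-1), where 34.3% and 34.4% of all genes did. Liver had 5 and 8, peritoneal metastases 3 and 3, and spleen 0 and 3, in the order IgG and anti-PD-1, where 24.9% and 31.5%, 24.0% and 21.9%, and 20.9% and 25.6% of all genes did.

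**Figure D4:**
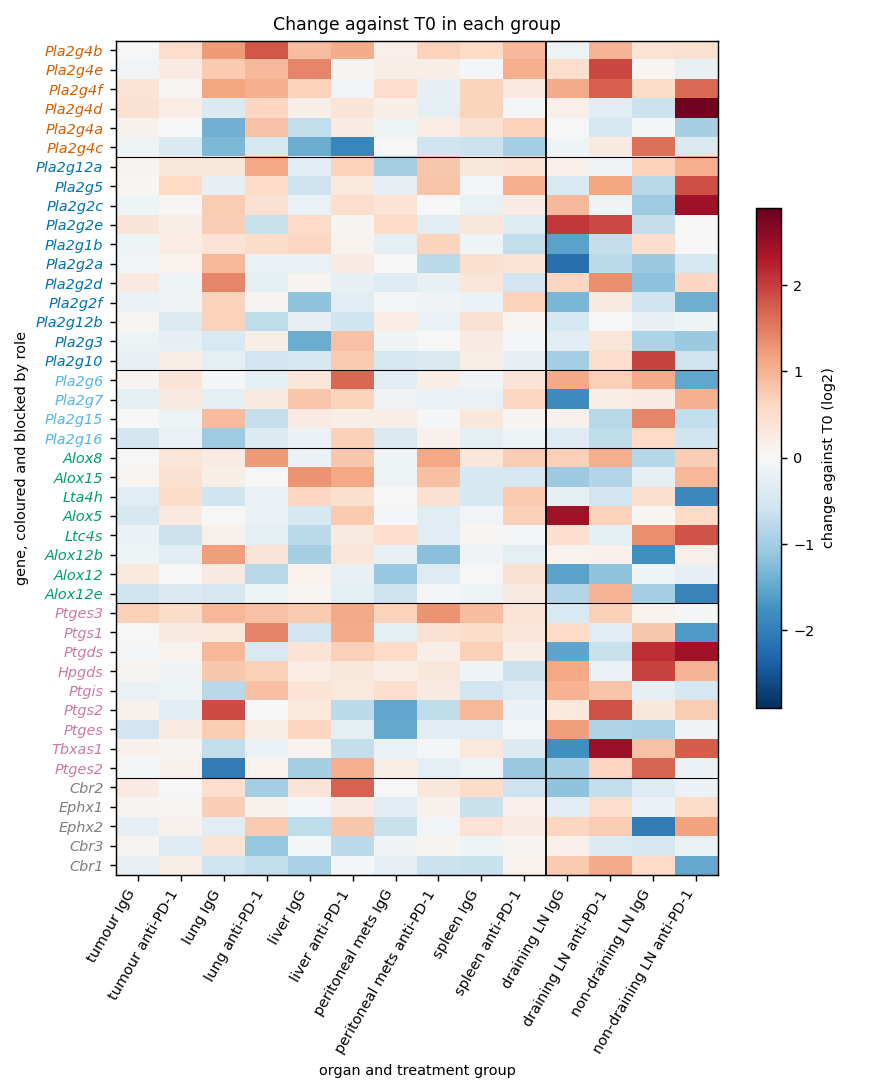
Change against T0 (colour, log2, red higher and blue lower) of the 43 genes (rows, blocked by role and ordered by mean change) in the 14 groups (columns, lymph nodes right of the black line). The tumour columns are pale throughout, the strongest colours are in lung, liver and the lymph nodes, and the *Ptges3* row is red in all 10 columns left of the line.

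Outside lung no member passed the test. In limma, 0 of 43 genes were called in tumour under IgG or anti-PD-1 (14.3% and 14.6% of all genes were called), in liver (13.3% and 9.87%), in peritoneal metastases (13.7% and 15.4%) or in spleen (13.9% and 14.4%). An unadjusted p under 0.05 was reached by 0 and 0 members in tumour, 2 and 0 in liver, 1 and 1 in peritoneal metastases (0 under anti-PD-1 without the library with the conflicting label), and 0 and 0 in spleen. Over all genes these shares were 16.5% and 17.0%, 17.9% and 14.8%, 17.3% and 18.1%, and 17.3% and 19.8%. With 1 spread per group, 6 values passed there. *Ptges3* was higher in tumour IgG (0.69, adjusted p = 0.0249; background 0.866%) and in peritoneal metastases anti-PD-1 (1.31, adjusted p = 0.0152; background 0.481%; 1.23 and 0.0349 without the library with the conflicting label). Without that library *Pla2g5* also passed there (1.35, adjusted p = 0.0216, against 0.84 and 0.246 with it). *Ptges* and *Ptgs2* were lower in peritoneal metastases IgG, where 18.2% of all genes were called lower. The libraries of *Ptges* gave -1.25 and -1.70 (mean -1.48, adjusted p = 0.00495) and those of *Ptgs2* -0.73 and -2.29 (mean -1.51, adjusted p = 0.0301). In liver IgG, *Pla2g4e* was higher (1.81 and 1.05, mean 1.43, adjusted p = 0.0244; background 0.529%) and *Pla2g2f* lower (-1.74 and -0.60, mean -1.17, adjusted p = 0.0495; background 17.3%).

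In lung, 4 values passed against T0. Under IgG, *Ptgs2* was higher and *Ptges2* lower, where 1.68% of all genes were called higher and 16.2% lower. The 3 libraries of *Ptgs2* gave 3.15, 1.77 and 0.78, all above T0 (-0.09 to 0.12), with a mean of 1.90 (SE 0.67, adjusted p = 0.0435) and 4 of 5 sgRNAs above 0. Those of *Ptges2* gave -1.79, -2.58 and -1.74, all below T0 (-0.29 to 0.17), with a mean of -2.04 (SE 0.67, adjusted p = 0.0275). Its sgRNAs gave -5.08, -3.19, -2.95, -0.47 and 1.52, and 7 of 15 sgRNA values were undetected.

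Under anti-PD-1, *Pla2g4b* and *Ptgs1* were higher, where 0.962% of all genes were called higher and 17.2% lower. The libraries of *Pla2g4b* gave 1.67, 2.75 and 1.001 (mean 1.81, SE 0.60, adjusted p = 0.0284), and all 5 sgRNAs were above 0 (0.53 to 4.15). Those of *Ptgs1* gave 1.23, 0.79 and 2.28 (mean 1.43, SE 0.49, adjusted p = 0.0372), with 4 of 5 sgRNAs above 0. In both genes every anti-PD-1 lung library lay above the T0 libraries. With 1 spread per group, *Pla2g4b* passed (adjusted p = 0.0271; background 0.674%) and the other 3 did not (0.0513 for *Ptgs1*, 0.0655 for *Ptges2* and 0.0796 for *Ptgs2*).

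These 4 lung calls depended on single libraries, and 3 of them on the centring. *Ptges2* passed under each centring, at -3.22 with the nontargeting median, -2.80 with the median of all sgRNAs and -3.97 with the values as deposited (adjusted p = 0.00120, 0.00393 and 4.37e-05). All 4 were lost without any 1 of the T0 libraries (adjusted p of 0.0514 to 0.132). *Ptges2* was also lost without lung IgG replicate 2 (0.107), *Ptgs2* without lung IgG replicate 1 (1.27, 0.270) or 2 (0.0727) and without tumour IgG replicate 1, 2 or 3 or tumour anti-PD-1 replicate 1 (0.0508 to 0.0516), *Pla2g4b* without lung anti-PD-1 replicate 2 (1.34, 0.173), and *Ptgs1* without lung anti-PD-1 replicate 3 (1.01, 0.205). With all 41 libraries in 1 fit none of the 4 passed (0.131 to 0.494). *Ptges2* was also lost with a pseudocount of 10 (-1.28, 0.0713) or the median of its sgRNAs (-2.99, 0.0659), and *Ptgs1* with the lowest 10% of sgRNAs left out (0.0648). When the nontargeting median was the centre, *Ptgs2*, *Pla2g4b* and *Ptgs1* stood at 0.71, 0.99 and 0.62 and did not pass (0.350, 0.204 and 0.406). When the median of all sgRNAs was the centre, *Ptgs2*, *Pla2g4b* and *Ptgs1* stayed above 0 (1.14, 1.44 and 1.07) but did not pass, and with the values as deposited they stood at -0.04, 0.43 and 0.06 (adjusted p = 0.960, 0.547 and 0.933).

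**Figure D5:**
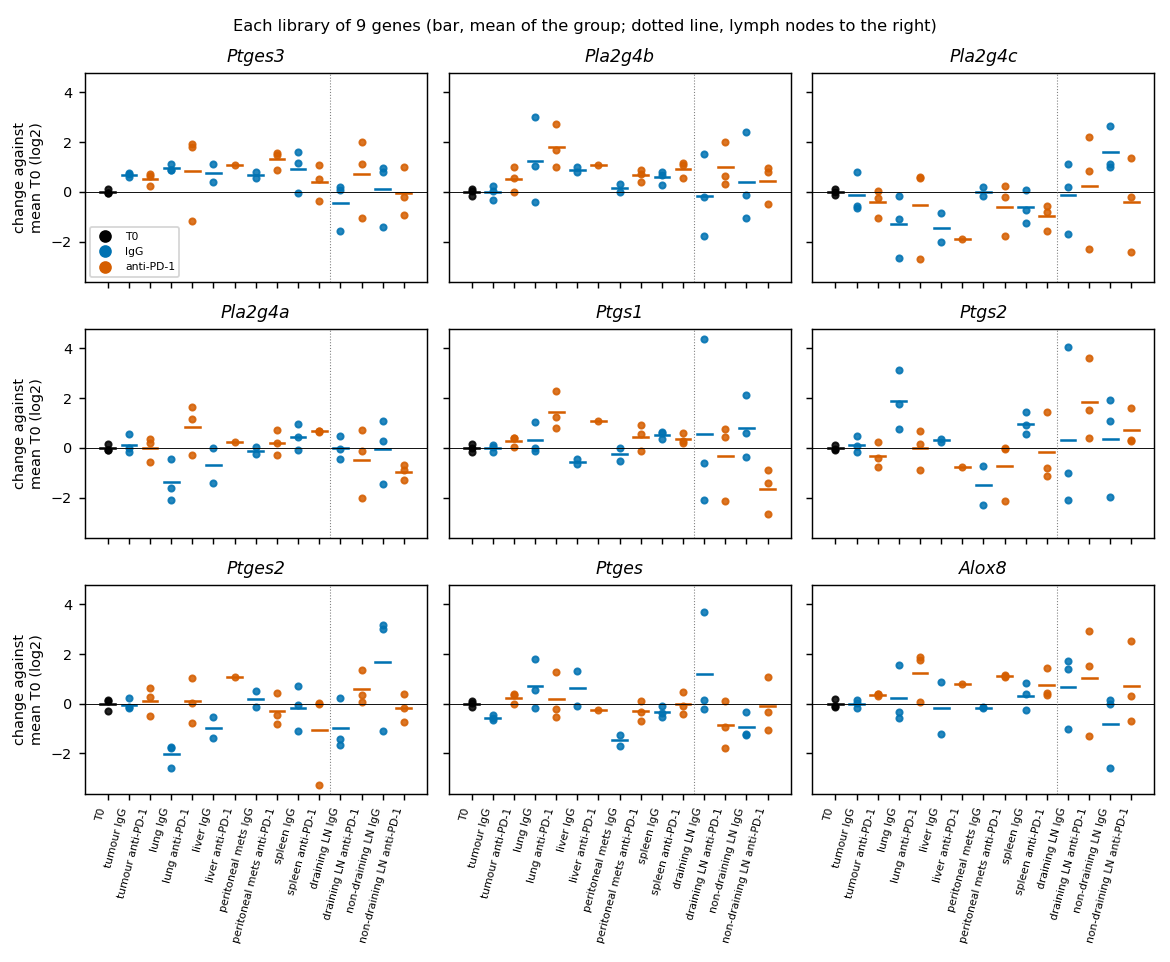
Change against mean T0 (y axis, log2) in every library of 9 genes, by organ and treatment (x axis). Points are libraries (black T0, blue IgG, orange anti-PD-1), bars are group means and the dotted line separates the lymph nodes. *Ptges3* lies above 0 in nearly all organ libraries, *Pla2g4a* has its IgG and anti-PD-1 lung libraries apart, and every gene spreads most in the lymph nodes.

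Anti-PD-1 was set against IgG within each organ to ask whether the abundance of the knockouts differed with checkpoint blockade. In lung, *Pla2g4a* was higher under anti-PD-1 (1.17, -0.28 and 1.65) than under IgG (-2.12, -1.60 and -0.46), and the libraries did not overlap. The difference was 2.23 (SE 0.56, adjusted p = 0.0233), where 1.2% of all genes were called higher. An unadjusted p under 0.05 was reached by 10 of 43 members and 21.0% of all genes in that contrast. With 1 spread per group it did not pass (adjusted p = 0.775, SE 0.84), nor with all 41 libraries in 1 fit (0.333), nor without lung IgG replicate 1 (1.87, 0.0791) or lung anti-PD-1 replicate 3 (1.83, 0.0679). Among its sgRNA values, 5 of 15 under IgG and 2 of 15 under anti-PD-1 were undetected. In the other organs 0 members were called between treatments in limma, and 0% of all genes were called in tumour, 0% in liver, 0% in peritoneal metastases and 0% in spleen. The members with an unadjusted p under 0.05 numbered 0 in tumour, 2 in liver, 1 in peritoneal metastases (2 without the library with the conflicting label) and 0 in spleen, against 0.674%, 4.48%, 5.15% and 7.75% of all genes. In the tumour, *Ptges* stood at -0.66, -0.45 and -0.58 under IgG and 0.33, 0.39 and just below 0 under anti-PD-1. It did not pass or reach an unadjusted p under 0.05. The share of all genes whose libraries do not overlap is not given, for this contrast or for that of *Pla2g4a* in lung.

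Averaged over the 5 organs, no member was called in limma between treatments (1.35% of all genes were). An unadjusted p under 0.05 was reached by 8 of 43 members and by 15.8% of all genes. Of the 8, 6 were higher under anti-PD-1, namely *Pla2g5* (0.88), *Alox8* (0.81), *Pla2g12a* (0.77), *Pla2g4a* (0.72), *Ptgs1* (0.72) and *Ephx2* (0.66), and *Ptgs2* (-0.75) and *Pla2g2d* (-0.64) were lower. The share of members at an unadjusted p under 0.05 was near that of all genes. Neither cyclooxygenase passed (adjusted p = 0.150 for *Ptgs1* and 0.278 for *Ptgs2*), so their opposite signs are not read as a difference between them. Without the library with the conflicting label the same 8 genes had an unadjusted p under 0.05, and none passed. Whether the treatment effect differed between organs was tested across the 5 organs, and 0 members were called (0% of all genes). In limma, 2 members and 4.96% of all genes had an unadjusted p under 0.05, and *Ptges2* led with an adjusted p of 0.805.

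Differences among the 5 organs were tested over both treatments. The authors had corrected the values for batches, and what part of an organ difference this removed is not known. No member was called in limma's moderated F-test, where 0.433% of all genes were, and 4 members had an unadjusted p under 0.05 against 7.80% of all genes. *Ptgs2* led with an adjusted p of 0.257. Its group means ran from -1.51 in peritoneal metastases IgG to 1.90 in lung IgG.

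In the lymph nodes values spread widely between libraries. In draining nodes 0 members were called under IgG (0% of all genes) or anti-PD-1 (0%), and in non-draining nodes 0 under IgG (0%) or anti-PD-1 (0%). An unadjusted p under 0.05 was reached by 2, 1, 1 and 3 members in the same order, against 10.2%, 11.3%, 7.03% and 6.06% of all genes. Anti-PD-1 against IgG gave 0 calls in draining (0% of all genes) and non-draining nodes (0%), with 2 (4.65%) and 7 (16.3%) members at an unadjusted p under 0.05, against 12.0% and 11.7% of all genes. The highest means over the 4 node groups were *Pla2g4f* (1.25) and *Hpgds* (0.97), and the lowest *Pla2g2a* (-1.14) and *Alox12* (-0.77). The libraries behind them ran from -1.52 to 4.47 for *Pla2g4f*, from -1.19 to 2.85 for *Hpgds*, from -2.24 to 0.57 for *Pla2g2a* and from -2.60 to 0.91 for *Alox12*. In draining nodes the libraries of *Tbxas1* gave -1.68, -1.76 and -1.90 under IgG and 3.28, 2.09 and 2.13 under anti-PD-1. They did not overlap, but the difference of 4.28 did not pass (interval 2.18 to 6.38, adjusted p = 0.0776, or 0.275 with 1 spread per group). *Tbxas1* was picked after its values were seen, and the share of all genes without overlap is not given. Over all node libraries, 40 of the 60 sgRNA values of *Tbxas1* were undetected. *Ptges3* averaged 0.08 in the nodes, with 7 of 12 libraries above 0, and *Pla2g4b* 0.42, also with 7 of 12. For both genes the node libraries overlapped T0 on either side.

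Other genes that supply or process the same lipids were read from a list of 32 measured genes. Their median was -0.14, equal to that of all genes, and 1 passed. *Gpx4*, which reduces lipid hydroperoxides in membranes, fell by 1.50 on the log2 scale (SE 0.52, adjusted p = 0.0451). With 1 spread per group *Acsl4* (-1.11), *Pnpla6* (-0.59) and *Elovl2* (-0.49) also passed as lower and *Lpcat3* (0.70) and *Cyp2j9* (0.47) as higher. These are 4 of 32 lower and 2 of 32 higher, where 26.9% and 5.1% of all genes were called, and the 1 call with the pooled spread stands beside 16.3% of all genes. *Acsl4* activates arachidonic acid for its storage in phospholipids, and *Lpcat3* places polyunsaturated fatty acids into them.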

How the data were processed

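Integrated sgRNAs were sequenced in 43 samples of sorted cells, of which 41 carry values because the authors excluded 2 after quality control. The deposited values are a signal per sgRNA and library that the authors made with MAGeCK by scaling read counts on 250 nontargeting sgRNAs, followed by ComBat, described as a correction between organs. Its settings are not given in the sources used here, and the lowest values of an sgRNA are shared within a replicate number, so which batches it used is not known, nor what part of an organ difference it removed. Since whole reads no longer appear in it, no count model was used, and depth and counting error are unknown. p-values measure the spread between libraries, which may be technical. log2(value + 1) was centred on the nontargeting mean. limma 3.58.1 in R 4.3.3 fitted T0 with the 10 organ groups (29 libraries) and T0 with the 4 lymph node groups (15 libraries), and the scripts were tested on simulated data. Symbols matched RefSeq for 42 members and by an older symbol for 1. Groups came from the labels.

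The members and gene lists were chosen with earlier results of these data known. Genes named by rule are members past the threshold outside the nodes, the 3 highest and 3 lowest mean changes, the 2 highest and 2 lowest in the nodes, a list of well-known enzymes, and other pathway genes past the threshold. Other genes named were chosen after their values were seen. Beside leaving out each library, 8 alternatives were planned and 4 (the spread per group, the random block, both together, and undetected sgRNAs at 0) were added after the data were seen.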

Additional observations from a re-analysis of the deposited data

How the results depend on the processing

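With the main settings, 4 member values passed against T0 over the 10 organ groups, 0 in their mean, 0 in the lymph nodes, 1 between treatments and 0 between organs. The first count became 9 with the nontargeting median as the centre, 44 with the values as deposited, 11 with the median of the sgRNAs, 0 with all 41 libraries in 1 fit, 7 with 1 spread per group and 7 with that and the random block. Over all genes, the calls summed over these groups numbered 87 higher and 2936 lower with the main settings, 25 and 3653, 6 and 5590, 234 and 1592, 16 and 2584, 144 and 3540, and 142 and 3575 in the same order. With the nontargeting median all 9 were in lung, and of the 4 main calls only *Ptges2* in lung IgG was among them. With the median of all sgRNAs the member calls were *Pla2g4a*, *Pla2g4c* and *Ptges2* in lung IgG. Over all genes, 43 calls were then higher and 3001 lower. The member count ran from 0 (without any 1 T0 library) to 7 (without lung IgG replicate 3) when single libraries were left out. The count in the mean became 1 with the values as deposited (*Pla2g4c*), 1 with the median of the sgRNAs (*Ptges3*), 5 with 1 spread per group and 3 with that and the random block, and stayed at 0 without each library. The lymph node count became 171 with the values as deposited, which lack the centring of each library, and stayed at 0 without each library. With the alternatives, shares over all genes are not given for this count, nor for those between treatments and between organs. For the count in the mean they are given only with 1 spread per group (5.1% higher and 26.9% lower). The count between treatments became 6 with all 41 libraries in 1 fit and 0 with 1 spread per group, with or without the random block, and ran from 0 to 4 without single libraries. It was 0 without lung IgG replicate 1 or lung anti-PD-1 replicate 3, 2 without spleen anti-PD-1 replicate 2 or non-draining node IgG replicate 1, 3 without lung IgG replicate 2 or lung anti-PD-1 replicate 1 or 2, and 4 without lung IgG replicate 3. The count between organs became 3 with the values as deposited and 1 with the median of the sgRNAs, and stayed at 0 without each library. The cause of these moves was not tested, except that shifting the centre moves every gene of a library alike. With the values as deposited, *Ptgs2* in lung IgG reversed from 1.90 to -0.0369. The replicate number as a block left 4 calls against T0 and 1 between treatments. Same-numbered libraries of T0 and an organ correlated at -0.36 to 0.15 in their deviations from group means. Those of both treatments of an organ correlated at -0.11 to -0.01. The values were corrected for batches that are not known and could be the replicate numbers. These correlations therefore cannot tell whether the numbers pair the samples of these comparisons. Libraries of the same number and treatment in different organs correlated at 0.04 to 0.27 (34 of 41 pairs above 0.1), for which the random block was added. The mean changes of the 24 named genes stayed on the same side of the threshold in all 960 values with 1 library left out, with 34 changes of sign in 5 genes. The mean over 10 groups could not be fitted without the only liver anti-PD-1 library.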
